A study of Mus musculus with 4 samples.

Results

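The adipogenic transcription factors are 10 genes that drive or accompany the making of fat cells: Pparg, Cebpa, Cebpb, Cebpd, Ebf1, Ebf2, Klf15, Srebf1, Mlxipl and Zfp423. They are 10 of the 19938 genes with a probe set of their own on the arrays, and all 10 were among the 14953 genes tested. Members were named by their role, and the probe set of each gene is chosen by the highest mean intensity over all 4 arrays, although every member has only 1 probe set of its own here. The list was drawn up with earlier results of the same group comparison known. Its values therefore describe the members, and nothing is read from the share of members called.

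Total RNA of whole skin from E17.5 mouse embryos was hybridised to 4 Affymetrix arrays. Each array pooled 2 mice, labelled female. The Ovol2 BT group (2 arrays, strain given as FVB/N) carried the tetracycline-responsive transgene TRE-Ovol2-Flag together with K5-tTA, a tetracycline transactivator driven by the keratin 5 promoter, which is active in basal keratinocytes and not in fat cells. The control group (2 arrays, strain given as CB6F1) carried TRE-Ovol2-Flag without the driver, or was wild type. Since the labels name a different strain for each genotype but also call the mice littermates, an effect of strain and one of the transgene cannot be told apart. Ovol2 encodes a zinc finger repressor of epithelia, and the study asks how the epidermis differentiates when it is overexpressed there.

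Fat cells form from mesenchymal precursors through a cascade of transcription factors. Cebpb and Cebpd respond first to adipogenic signals, while Zfp423, Ebf1 and Ebf2 mark and commit the precursors. These in turn switch on Pparg and Cebpa, which maintain each other and turn on the genes of the mature fat cell. Klf15, Srebf1 and Mlxipl rise as cells differentiate and fill with lipid. The first 5 are called early factors below, and Pparg, Cebpa, Klf15, Srebf1 and Mlxipl late factors. In mouse skin the dermal fat layer forms late in gestation. Several of the factors also act elsewhere: Cebpa and Cebpb in keratinocytes of the upper epidermis, Cebpa, Srebf1 and Mlxipl in liver, and Ebf1 in B cells.

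The arrays were on a similar scale, with median intensities of 126 and 132 in Ovol2 BT and 123 and 126 in controls. Ovol2 had intensities of 4367 and 3893 in Ovol2 BT arrays and 360 and 161 in control arrays, a log2 difference of 4.0 (SE 0.33, adjusted p = 0.00311) in the direction the labels give. Levels are deposited intensities without a unit of their own, differences are Ovol2 BT minus control of log2(intensity + 16), and a gene is called at an adjusted p under 0.05 in limma's fit across all genes. In that fit 0.963% of the genes tested were called, 0.615% higher and 0.348% lower in Ovol2 BT. The median difference of all genes was -0.04. With 2 arrays per group, their number limits the precision of every value.

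All 10 factors had a higher mean in Ovol2 BT skin, but by very unequal amounts. The fit called 2 of them, Mlxipl and Ebf2, beside 0.963% of all genes. In the same fit 6 factors, Ebf2 and the 5 late ones, were at an unadjusted p under 0.05. For 7 factors both Ovol2 BT arrays lay above both control arrays, against 20.4% of all genes tested. The 5 late factors differed by 0.54 to 1.79 on the log2 scale with a median of 0.95. The early factors other than Ebf2 differed by 0.05 to 0.22, and the median of all 5 early factors was 0.13. In whole skin, more fat cells, more RNA per fat cell and RNA from other cells that use the factors cannot be told apart.

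**Figure D1:**
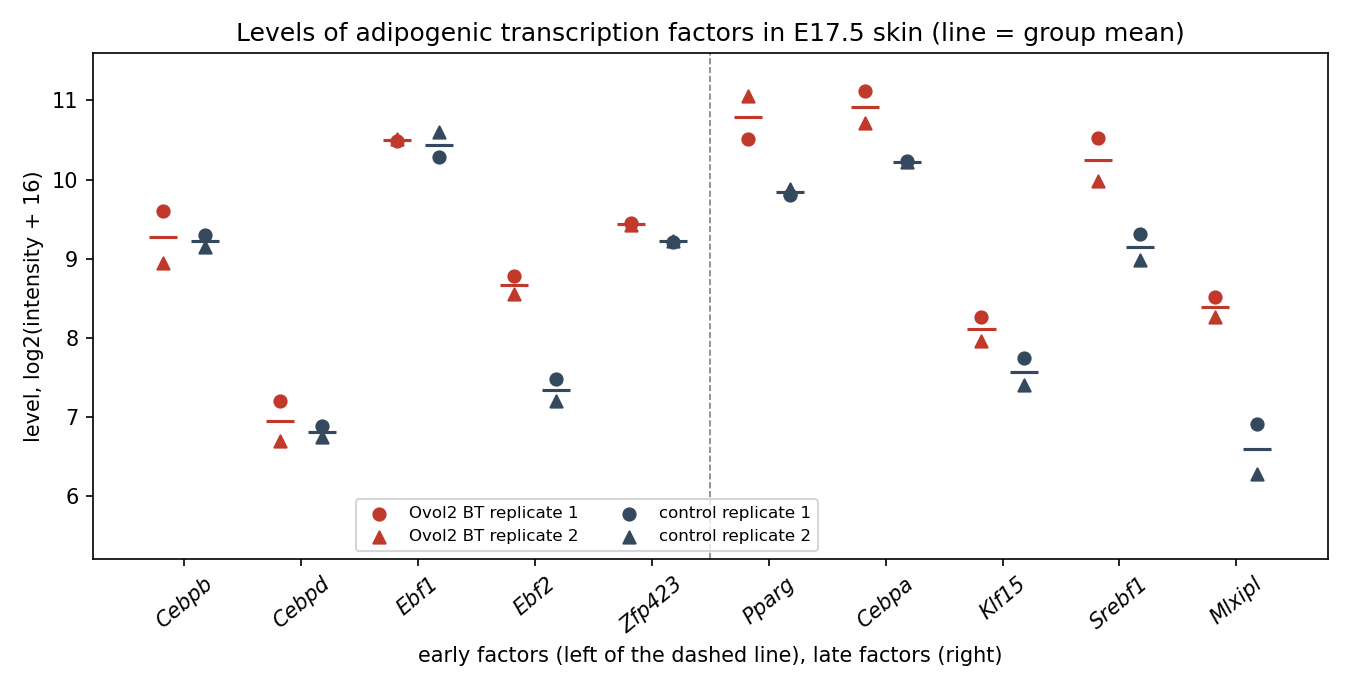
Level of each factor as log2(intensity + 16) on the vertical axis, with the early factors left and the late factors right of the dashed line. Red points are the 2 Ovol2 BT arrays and dark points the 2 control arrays, lines are group means; the groups are apart for Ebf2, Zfp423 and all 5 late factors, and overlap for Cebpb, Cebpd and Ebf1.

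Mlxipl, which encodes the glucose-sensing factor ChREBP that turns on glycolytic and lipid synthesis genes, showed the largest difference of the 10. Its intensity was 349 and 290.3 in Ovol2 BT arrays and 104 and 61.8 in control arrays. Both Ovol2 BT arrays were more than double either control array, while the controls also differed from each other. Mlxipl rose 3.46-fold, a log2 difference of 1.79 (SE 0.24, adjusted p = 0.0113), and was called under each alternative with all arrays that tested it. Mlxipl was not among the genes tested when the lower 50% by level were left out.

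The gene has 2 annotated starts in RefSeq, 17001 bases apart, and the probe set does not tell their transcripts apart. The upstream start is that of the shorter ChREBP-beta, whose transcription ChREBP itself is known to activate, and the downstream start that of the longer ChREBP-alpha. The 250 bases before each start are shown because either start could give the measured RNA. They are given 5′ to 3′ from RefSeq (GRCm38.p6, plus strand), and capitals mark matches on either strand to 3 motifs: CACGTG, the E box core bound by ChREBP and other helix-loop-helix factors, TTGCNNAA, a core of C/EBP sites, and TCACNCCAC, a sterol regulatory element bound by SREBP.
Mlxipl upstream start, chr5:135089640-135089889: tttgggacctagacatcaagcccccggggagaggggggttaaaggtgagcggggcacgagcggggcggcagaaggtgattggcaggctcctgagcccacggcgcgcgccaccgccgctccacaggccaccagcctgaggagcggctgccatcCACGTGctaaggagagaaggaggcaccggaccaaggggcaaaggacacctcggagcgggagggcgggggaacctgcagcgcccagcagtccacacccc
Mlxipl downstream start, chr5:135106641-135106890: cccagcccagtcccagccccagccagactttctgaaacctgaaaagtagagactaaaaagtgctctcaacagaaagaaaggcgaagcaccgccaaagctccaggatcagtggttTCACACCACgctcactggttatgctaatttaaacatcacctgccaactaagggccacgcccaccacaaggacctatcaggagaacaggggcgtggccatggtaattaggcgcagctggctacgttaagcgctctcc
The upstream window held 1 CACGTG, 98 to 93 bases before the start, and the downstream window 1 TCACNCCAC, 136 to 128 bases before it. Of 32851 such windows of mouse genes, 6.02% held the E box core, 9.56% the C/EBP core and 1.05% the sterol element, so a match describes the sequence and shows no binding.

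Srebf1 encodes SREBP-1, the factor that turns on fatty acid synthesis genes after insulin. Its intensity was 1460.2 and 993 in Ovol2 BT arrays and 621 and 492 in control arrays. The groups did not overlap, and the Ovol2 BT arrays lay further apart than the controls. The difference was 1.1 (SE 0.25, adjusted p = 0.112) and was not called with all arrays. It was 1.27 without control replicate 1, 0.94 without control replicate 2, 0.83 without Ovol2 BT replicate 1 and 1.38 without Ovol2 BT replicate 2. Such a fit leaves 1 array in a group, whose spread cannot be measured, so only its difference is given. RefSeq gives Srebf1 3 starts, and the forms SREBP-1a and SREBP-1c were not told apart.

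Pparg, the nuclear receptor without which no fat cells form, had intensities of 1444.5 and 2123 in Ovol2 BT arrays and 876 and 924 in control arrays. The controls were close together and both Ovol2 BT arrays were higher, replicate 2 more so than replicate 1. The difference was 0.95 (SE 0.23, 1.93-fold, adjusted p = 0.144), not called with all arrays. Without Ovol2 BT replicate 1 it was 1.22, and without Ovol2 BT replicate 2 it was 0.67.

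Pparg has 3 annotated starts. The farthest downstream, 59717 bases beyond the previous one, is the start of Pparg2, the form largely restricted to fat cells, while the upstream starts give the more widely expressed Pparg1. The probe set measures them together. The windows before the downstream and the farthest upstream start are shown to set these promoters side by side, with the same motifs in capitals (plus strand, GRCm38.p6).
Pparg farthest downstream start, chr6:115421816-115422065: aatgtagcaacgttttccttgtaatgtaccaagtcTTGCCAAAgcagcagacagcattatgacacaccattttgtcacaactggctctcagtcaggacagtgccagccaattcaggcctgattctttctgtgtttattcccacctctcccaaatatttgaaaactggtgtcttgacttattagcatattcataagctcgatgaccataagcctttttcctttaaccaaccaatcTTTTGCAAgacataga
Pparg farthest upstream start, chr6:115360894-115361143: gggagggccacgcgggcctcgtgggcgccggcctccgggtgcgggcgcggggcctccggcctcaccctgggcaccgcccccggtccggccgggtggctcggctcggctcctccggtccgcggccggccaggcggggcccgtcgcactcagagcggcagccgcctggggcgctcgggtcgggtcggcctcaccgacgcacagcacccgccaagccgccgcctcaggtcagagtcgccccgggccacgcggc
The downstream window held the C/EBP core at 2 places, 215 to 208 and 16 to 9 bases before the start, and 40.8% of its bases were G or C. The upstream window held none of the 3 motifs and was 82.4% G or C. Among the 15 windows of the 8 members that RefSeq's table holds, the C/EBP core was found in 2, that of Pparg and 1 of Zfp423, and the E box core in 2, those of Mlxipl and Klf15.

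Cebpa, the partner of Pparg in holding the fat cell state, had intensities of 2211 and 1665 in Ovol2 BT arrays and 1185 and 1177 in control arrays. The controls were nearly equal and both Ovol2 BT arrays exceeded them. The difference was 0.69 (SE 0.21, 1.62-fold, adjusted p = 0.272), not called, and lay between 0.49 and 0.90 with 1 Ovol2 BT array left out.

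Klf15, a Krüppel-like factor that rises during fat cell differentiation and raises the glucose transporter gene Slc2a4, had intensities of 292 and 233 in Ovol2 BT arrays and 198 and 154 in control arrays. The lower Ovol2 BT array was not far above the higher control. Its difference of 0.54 (SE 0.22, adjusted p = 0.442) was not called and was the smallest of the late factors. It was 0.37 without control replicate 2 and 0.70 without control replicate 1.

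Among the early factors Ebf2 stood apart. Ebf2 encodes a helix-loop-helix factor that marks precursors of brown and beige fat and opens brown fat genes to Pparg. Its intensity was 425 and 359 in Ovol2 BT arrays and 163 and 131 in control arrays. The lower Ovol2 BT array was more than double the higher control. Ebf2 rose by 1.33 (SE 0.21, 2.51-fold, adjusted p = 0.0241) and was called under every alternative with all arrays. Its difference lay between 1.12 and 1.47 over the 14 refits with another setting or 1 array left out.

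Zfp423, a zinc finger factor that commits precursors to the fat lineage and holds back brown fat genes, had intensities of 683 and 675 in Ovol2 BT arrays and 575 and 584 in control arrays. The arrays of each group were almost equal and the groups did not overlap. The difference was 0.22 (SE 0.20, 95% interval -0.24 to 0.68, adjusted p = 0.716), not called. The SE of the fit is larger than the spread of the 4 Zfp423 values because limma draws each gene's variance towards that of genes of like level.

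Cebpb, a leucine zipper factor induced at the start of differentiation, had intensities of 762 and 479 in Ovol2 BT arrays and 616 and 552 in control arrays. The Ovol2 BT arrays lay on either side of the controls. Its difference was 0.05 (SE 0.26, 95% interval -0.53 to 0.63, adjusted p = 0.957), and it was -0.28 without Ovol2 BT replicate 1 and -0.03 without control replicate 2.

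Cebpd, which is induced with Cebpb, had intensities of 132 and 87.5 in Ovol2 BT arrays and 102 and 91.5 in control arrays. Again the Ovol2 BT arrays lay on either side of the controls. The difference was 0.13 (SE 0.20, 95% interval -0.32 to 0.58, adjusted p = 0.828), and it was -0.12 without Ovol2 BT replicate 1.

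Ebf1, a relative of Ebf2 that acts in white fat precursors and mature fat cells, had intensities of 1425 and 1447 in Ovol2 BT arrays and 1230.5 and 1533 in control arrays. Here the controls lay on either side of Ovol2 BT. The difference was 0.06 (SE 0.20, 95% interval -0.40 to 0.52, adjusted p = 0.922), and it was -0.09 without control replicate 1. For Cebpb, Cebpd and Ebf1 no direction can be given, and the intervals leave room for changes in either direction.

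**Figure D2:**
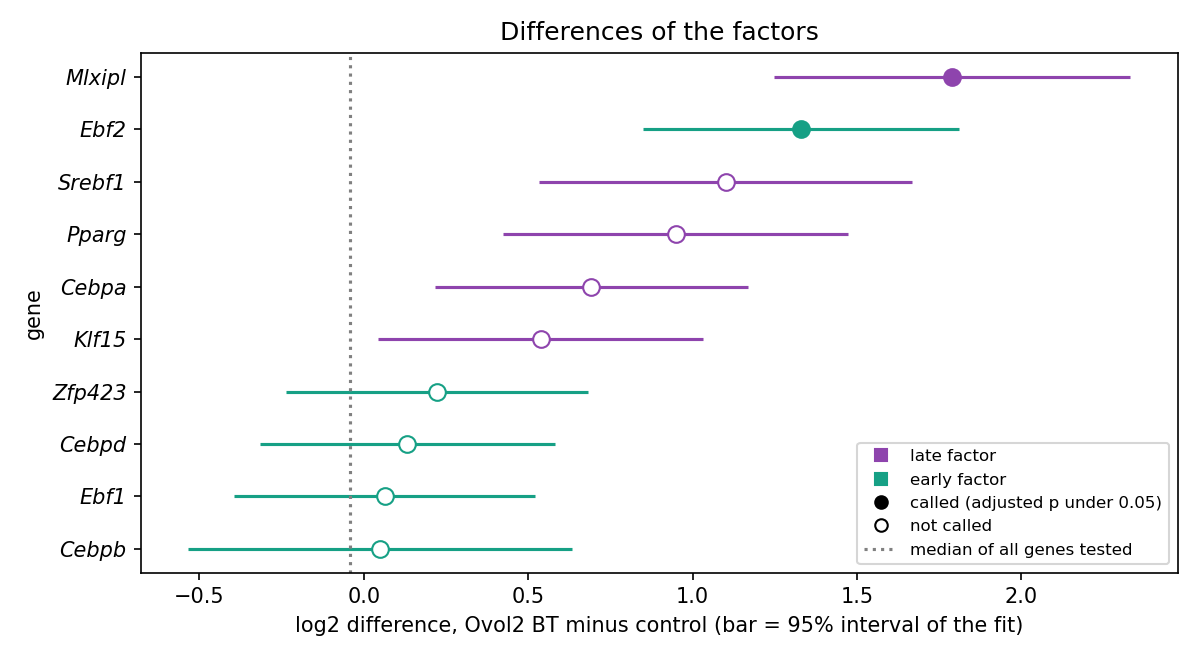
Log2 difference of each factor, Ovol2 BT minus control, with its 95% interval from the fit; purple marks late and green early factors, filled points were called and the dotted line is the median of all genes. Mlxipl (1.79) and Ebf2 (1.33) were called, the other late factors lie between 0.54 and 1.1 and the other early factors between 0.05 and 0.22.

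Set in order, the differences ran Mlxipl, Ebf2, Srebf1, Pparg, Cebpa, Klf15, Zfp423, Cebpd, Ebf1 and Cebpb. Of the 9 gaps between neighbours 2 were larger than their SE, that between Mlxipl and Ebf2 (0.46, SE 0.32) and that between Klf15 and Zfp423 (0.32, SE 0.30), and 0 were larger than 2 SE. Averaged over the 5 genes of each class, the late factors stood 1.11 and 0.92 above their control means in Ovol2 BT replicates 1 and 2, against 0.12 and -0.12 in controls 1 and 2. The early factors stood at 0.50 and 0.22 in Ovol2 BT, Ebf2 included, against 0.02 and -0.02 in the controls. The difference between the classes was not tested, since the members and classes were set with the results known. The early median moved with 1 array: it was 0.38 without Ovol2 BT replicate 2, 0.20 and 0.22 without control replicates 1 and 2, and 0.07 without Ovol2 BT replicate 1. The late median lay between 0.83 and 0.94 with 1 array left out. Of the 10 factors, 8 had their higher Ovol2 BT value in replicate 1, the exceptions being Pparg and Ebf1.

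The closest relatives of the factors mostly showed small differences. Of 10 such paralogs, 9 were tested and 1 was called. Ppara, the receptor of the Pparg family that turns on fatty acid oxidation and is abundant in brown fat and liver, had intensities of 570 and 429 in Ovol2 BT arrays and 130 and 138 in control arrays. Both Ovol2 BT arrays were far above the controls, which were close together. It rose by 1.77 (SE 0.22, adjusted p = 0.00760), with all arrays and with each left out, more than Pparg (0.95), though that contrast was not tested. The other 8 paralogs were not called. Ebf3 was at 0.47 (adjusted p = 0.494), Cebpe at 0.41 (0.469), Ppard at 0.21 (0.736), Mlxip at 0.16 (0.788), Zfp521, an antagonist of Zfp423, at -0.07 (0.927), Srebf2, the cholesterol synthesis factor, at -0.08 (0.904), Cebpg at -0.09 (0.898) and Ebf4 at -0.17 (0.799). Among 14 other Klf factors tested limma called 0, with 2 at an unadjusted p under 0.05. These were Klf12 (-0.59, adjusted p = 0.354) and Klf4 (-0.46, adjusted p = 0.457), which acts in the upper epidermis. The Klf list's median was -0.17.

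Genes that Pparg and Cebpa are known to turn on in mature fat cells held the most called genes of the 8 lists of targets, relatives, partners and regulators examined. Of 23 listed genes 21 were tested; 13 were called higher and 0 lower, 61.9% against 0.963% of all genes, and all 21 had higher values. Their median difference was 1.85. This list, like the other lists and the members, was chosen with earlier results known, so nothing is read from the share called. The lipid droplet gene Cidea had intensities of 788 and 457 in Ovol2 BT arrays and 67.3 and 42.8 in control arrays, and rose by 3.14 (SE 0.29, adjusted p = 0.00317). Pck1, which makes glycerol phosphate for fat storage, rose by 3.09, the glycerol channel gene Aqp7 by 2.81, the droplet gene Plin4 by 2.32 and the acyltransferase gene Agpat2 by 2.05. No factor stood at the top of that range: 11 of the 21 targets had a larger difference than Mlxipl, 17 a larger one than Pparg and 17 a larger one than Cebpa. The 8 targets not called included Fabp4, the fatty acid binding protein gene (0.98, adjusted p = 0.139), and the insulin-responsive Slc2a4 (1.25, adjusted p = 0.103).

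Targets of Srebf1 and Mlxipl in lipid synthesis divided. Of 19 tested, 5 were called higher, 0 lower, and the median was 0.29. Thrsp, a lipogenic regulator gene, had intensities of 1178 and 1063 in Ovol2 BT arrays and 158 and 45.5 in control arrays, and rose by 3.46 (SE 0.41, adjusted p = 0.00668). The carboxylase gene Acacb rose by 2.37, the desaturase gene Scd1 by 2.23 and Lpin1, a phosphatidate phosphatase gene, by 2.02. Fasn, the fatty acid synthase gene, rose by 1.03 (adjusted p = 0.0328), but its call ended without a variance trend (adjusted p = 0.0609). Without Ovol2 BT replicate 2 the Fasn difference was 0.99. The other 14 were not called, among them Acaca at 0.29, Acly at 0.16, Scd2 at 0.03 and Elovl6 at -0.30, which encode enzymes of fatty acid synthesis or modification.

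**Figure D3:**
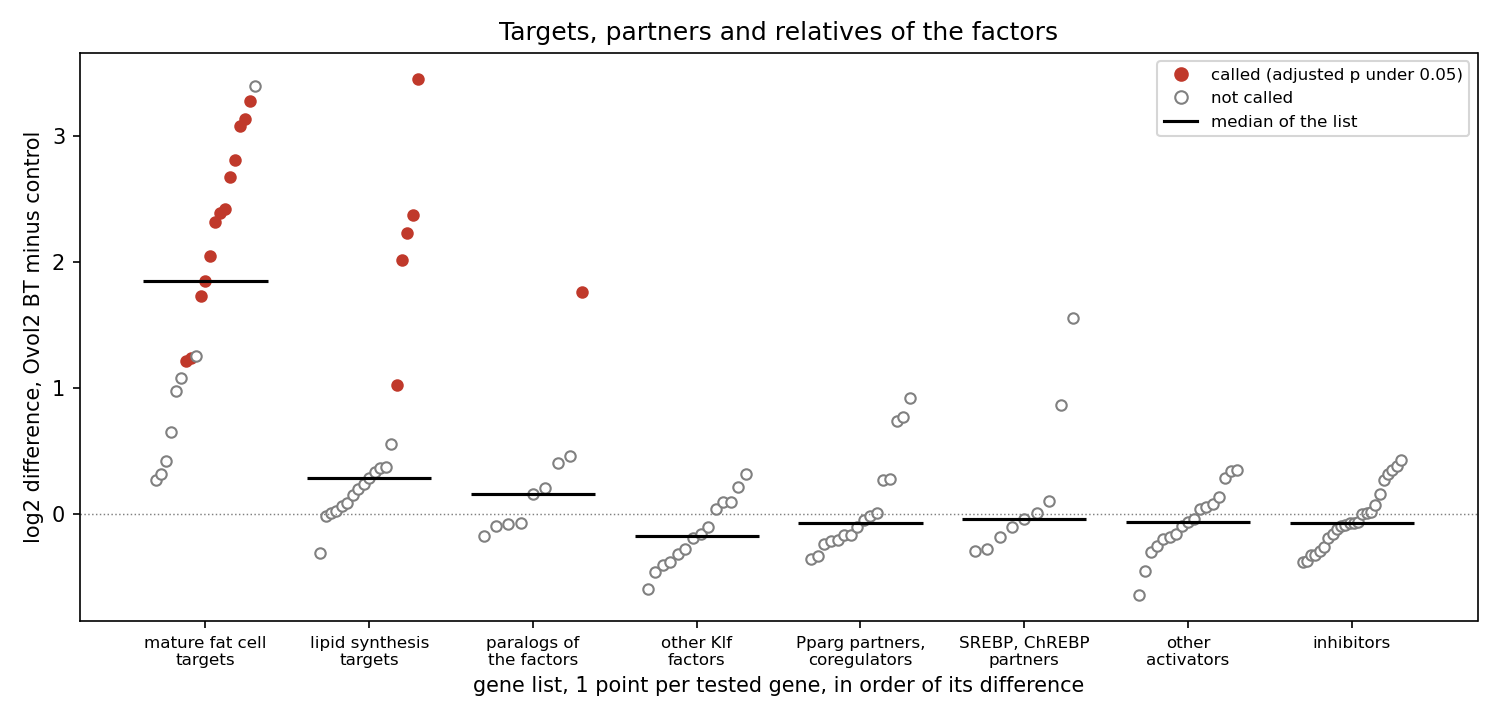
Log2 difference of each tested gene, Ovol2 BT minus control, in 8 lists of targets, relatives, partners and regulators of the factors. Red points were called, open points were not and lines are list medians; called genes are seen among the mature fat cell targets (13 of 21), the lipid synthesis targets (5 of 19) and the paralogs (1 of 9).

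Partners and regulators of the factors were not called by limma in any of 4 lists. Among partners and coregulators of Pparg it called 0 of 16, with 3 at an unadjusted p under 0.05 and a list median of -0.07. The coactivator gene Ppargc1a, which drives mitochondrial genes in brown fat, was at 0.92 (intensity 188 and 142 in Ovol2 BT, 82.2 and 75.6 in controls, adjusted p = 0.0661). Ppargc1a was at 0.97 without control replicate 1, 0.87 without control replicate 2, 0.74 without Ovol2 BT replicate 1 and 1.1 without Ovol2 BT replicate 2. It has 2 probe sets, and their mean gave 0.61 (adjusted p = 0.210). Its relative Ppargc1b was at 0.78 (adjusted p = 0.212). Of 9 partners and regulators of SREBP and ChREBP 0 were called, with 2 at an unadjusted p under 0.05. These were Nr1h3, which encodes the oxysterol receptor LXR-alpha that activates Srebf1 (1.55, adjusted p = 0.0589, intensity 667 and 434 in Ovol2 BT and 228 and 130 in controls), and Insig1, a brake on SREBP processing and itself an SREBP target (0.87, adjusted p = 0.143). Nr1h3 was called with the lower 50% of genes left out (adjusted p = 0.0168), with arrays centred on their medians (0.0387) and with a replicate block (0.000172). In the other refits with all arrays its adjusted p was over 0.05. Nr1h3 was at 1.93 without control replicate 1, 1.18 without control replicate 2, 1.25 without Ovol2 BT replicate 1 and 1.86 without Ovol2 BT replicate 2.

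Of 17 other activators of fat cell formation 0 were called, with 1 at an unadjusted p under 0.05, and the median was -0.06. The lowest p belonged to Bmp2, a ligand (-0.64, adjusted p = 0.433), and Creb1, which turns on Cebpb (-0.45, adjusted p = 0.512). Of 24 inhibitors 0 were called, with 1 at an unadjusted p under 0.05 and a median of -0.07. The lowest p there belonged to Foxa2 (0.43, adjusted p = 0.353) and Wnt5b (0.38, adjusted p = 0.494). Dlk1, the preadipocyte factor that falls as fat cells mature, had intensities of 8409.9 and 7306 in Ovol2 BT and 8514 and 7126 in controls, a difference of 0.01 (SE 0.15).

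The genes whose 4 values ran closest to each called factor were found by the root mean square distance between log2 values, each gene centred on its control mean, among 14277 named genes. Nearest to Mlxipl were Plin1, the lipid droplet coat gene (0.08), Dgat1, which makes triacylglycerol (0.10), and Lipe, the hormone-sensitive lipase gene (0.11). Nearest to Ebf2 were Ifi27 (0.02), an interferon-responsive gene, Atp1a4 (0.08), a sodium pump subunit gene, and Slc1a5 (0.08), a glutamine transporter gene. With 4 arrays such likeness is a description.

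Lists of cell type markers differed between the groups to different extents and in different directions. Mature fat cell targets stood 1.91 and 1.77 above control means in Ovol2 BT replicates 1 and 2, against 0.33 and -0.33 in the controls, and their summed intensity was 48501 and 44276 in Ovol2 BT against 17489 and 11904 in controls. Of 12 brown fat genes tested 6 were called higher, 0 lower. Summed over the 13 with a probe set, the intensity was 9003 and 6617 in Ovol2 BT and 2194 and 1715 in controls. The 6 called are Cidea, which is also among the mature fat cell targets, Cox7a1, Cox8b, Kcnk3, Slc36a2 and Ucp1. Of these, Ucp1, the uncoupling protein gene (intensity 198 and 356 in Ovol2 BT, 37.9 and 44.2 in controls), rose by 2.31. Prdm16, a brown fat coregulator gene, was at 0.28 (adjusted p = 0.616) and Zic1, a marker of brown fat precursors, at -0.05 (adjusted p = 0.943). Fat cell precursor markers, Pparg being 1 of the 9 tested, had a median of 0.09 with 0 called by limma. The 2 at an unadjusted p under 0.05 went in opposite directions, Pparg at 0.95 and Cd24a at -0.68. Pdgfra, the precursor and fibroblast receptor gene, was at 0.06 (adjusted p = 0.927). Fibroblast markers had a median of 0.06, with 0 of 10 called and 0 at an unadjusted p under 0.05. Their summed intensity was 40472 and 38246 in Ovol2 BT against 38058 and 39099 in controls.

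Cells outside fat that use some of these factors were also checked. Hepatocyte markers were lower in Ovol2 BT, with a median of -1.45 over 7 tested genes. Summed over the 8 with a probe set, their intensity was 1351 and 843 in Ovol2 BT against 6506 and 2722 in controls. Only Alb, the albumin gene, was called (fell by 2.63, adjusted p = 0.0328), a count that lay between 1 and 6 with 1 array left out. Ahsg, another hepatocyte marker, was below the filter on level. Between the groups, these liver markers were lower where Cebpa, Srebf1 and Mlxipl were higher. Within each group, replicate 1 had both the higher liver marker sum and the higher values of these factors. Single liver markers differed in this, Alb being lower in replicate 1 of each group. In basal keratinocyte markers 3 of 8 were called lower (Krt5, Krt14 and Krt15) and in suprabasal markers 0 of 9 were called, with 3 at an unadjusted p under 0.05 and a median of -0.22. Of 8 tested sebaceous gland markers 1 was called, Cidea, which is also a fat cell gene, but 6 were at an unadjusted p under 0.05 and the list's median was 0.28. Their directions differed: Mgst1 was at 0.68, Mc5r, a melanocortin receptor gene, at 0.55 and Plin5 at 0.40, while Fabp5 was at -0.58 and Far2, a fatty acyl reductase gene, at -1.35. Far2 (adjusted p = 0.124) was called lower with the lower 50% of genes left out (adjusted p = 0.0472). The Far2 difference was -1.84 without control replicate 2. The defining genes Awat1 and Awat2 were below the filter on level. The summed intensity of the sebaceous list was 9044 and 10256 in Ovol2 BT against 12844 and 8907 in controls. By value, 1 of the 8 basal and 1 of the 9 suprabasal keratinocyte markers were higher in Ovol2 BT. Skeletal muscle markers, whose tissue also expresses Klf15, had a median of 0.30 with 0 of 11 called by limma and 2 at an unadjusted p under 0.05. All 11 had higher values in Ovol2 BT, and for 7 both Ovol2 BT arrays lay above both control arrays, against 20.4% of all genes tested. Endothelial markers had a median of 0.27 with 0 of 9 called and 0 at an unadjusted p under 0.05. All 9 had higher values in Ovol2 BT, and for 4 both Ovol2 BT arrays lay above both control arrays, against the same 20.4%. Myeloid markers (median 0.25) and mast and B cell markers (median 0.10) had 0 of 7 called each, with 1 at an unadjusted p under 0.05 each. The part of these other cells in the factors' differences was not tested.

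**Figure D4:**
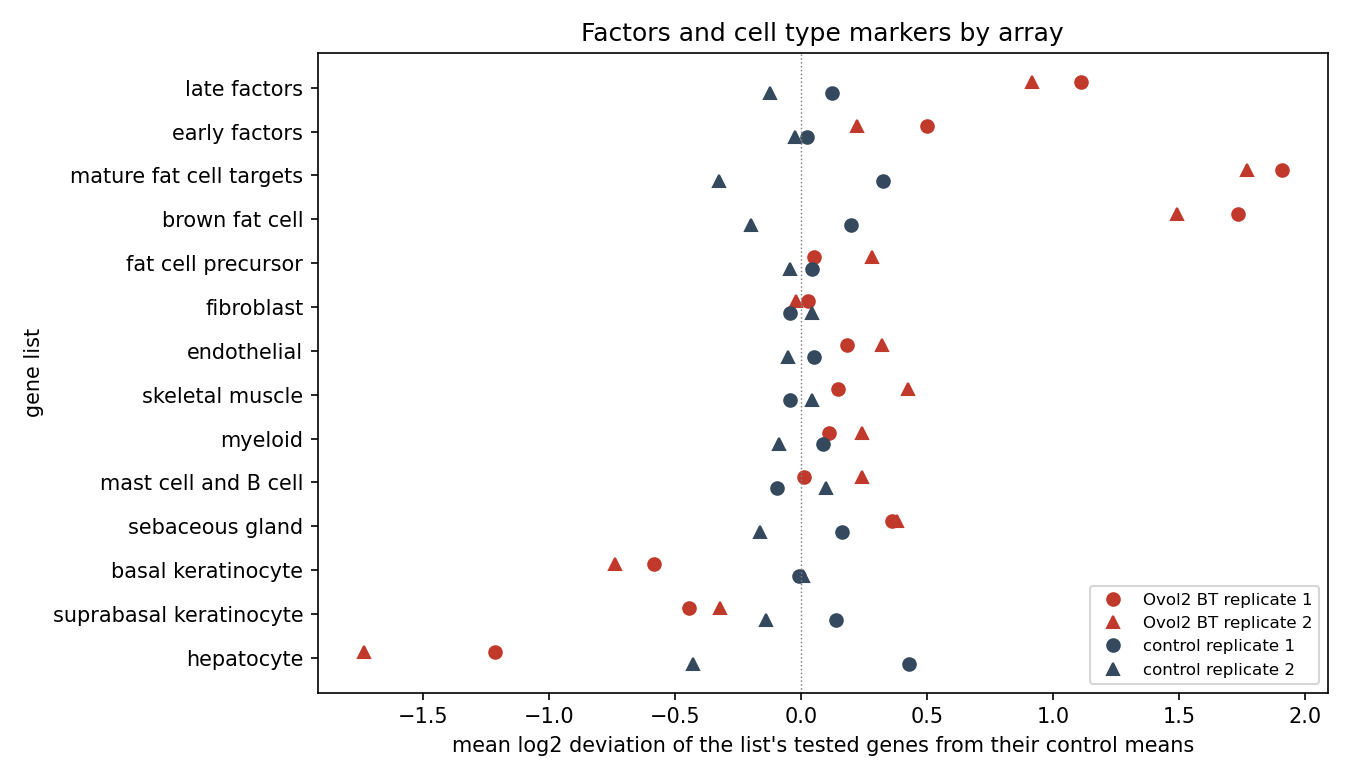
Mean log2 deviation from the control mean, per array, for the late and early factors and for lists of cell type markers. Red symbols are Ovol2 BT arrays and dark symbols control arrays; late factors (1.11 and 0.92 in Ovol2 BT) and mature fat cell targets (1.91 and 1.77) lie right of the controls, fibroblast markers lie with them and hepatocyte markers lie left.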

How the data were processed

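Whole-skin RNA was measured on 4 arrays, grouped by sample title. Deposited values are linear intensities of probe sets; the submitters' processing notes name Affymetrix Expression Console 1.1.1 and PLIER 2.0. Normalization, detection calls and genome build: not given in the sources used here. Of 35557 probe sets, 21789 name 1 gene; where a gene had several, the brightest on average represented it (999 genes).

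On log2(intensity + 16), a scale that understates changes at low levels, the lowest 25% of genes by mean were dropped. A group term was fitted to the other 14953 genes by limma 3.58.1 in R 4.3.3, with trended eBayes (6.94 prior and 2 residual degrees of freedom), two-sided tests and Benjamini-Hochberg adjustment. Data were simulated with independent errors drawn from the fit's own variance estimates, without the correlation of same-numbered arrays given below. Their false calls describe that setting only. In them the fit recovered 31.2% of 2-fold, 98.7% of 4-fold and 100% of 8-fold changes, with 5.2% false calls. A gene that was not called can therefore still differ 2-fold. P-values set a difference against a variance taken from the spread between arrays and drawn towards that of genes of like level. Each array pooled 2 mice, so the spread between single animals was not measured. Figures used matplotlib 3.10.9.

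Members and lists were chosen with earlier results of these data known. The rule for named genes took the members, their paralogs, up to 5 called genes of each other list by p (the 2 lowest p where none was called), the 3 genes nearest to each called member, and Ovol2. Marker genes, Fabp4, Slc2a4, Acaca, Acly, Scd2, Elovl6 and Dlk1 were named after their values were seen. Promoter windows are the 250 bases before RefSeq starts, matched by symbol for 8 of 10 members. The alternatives changed the pseudocount (1, 64), filter (none, 50%), normalization (quantile, median), variance trend (none, robust), probe set rule (mean), replicate block, arrays (each omitted in turn) and threshold (0.10).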

Additional observations from a re-analysis of the deposited data

How the results depend on the processing

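With all arrays in the fit, Ebf2 was called under every alternative and Mlxipl under each that tested it. With the lower 50% of genes left out, which removes Mlxipl and Cebpd from the genes tested, 1 factor was called. The other late factors were higher under every alternative. With all arrays in the fit, those called were called only with the replicate block given below. Calls of single genes with 1 array left out are not given, since the spread of a lone array cannot be measured. Of 144 genes called in all, the count lay between 206 and 366 with 1 array left out, a fit in which the lone array of a group is assumed to vary like the others, and members called lay between 2 and 3. The early median lay between 0.074 and 0.38 and the late median between 0.83 and 0.94 with 1 array left out. Signs turned only for differences that were not called, each with 1 array left out. Over those fits Ebf1 ranged from -0.094 to 0.22, Cebpb from -0.28 to 0.38, Cebpd from -0.12 to 0.39, Cebpg from -0.32 to 0.13, Zfp521 from -0.33 to 0.18 and Srebf2 from -0.25 to 0.092. The cause of these turns was not tested. Arrays of the 2 groups share replicate numbers, but no label says that a number marks a shared litter or day. Whether same-numbered arrays share more than a number is not known. Deviations of same-numbered arrays from their group means correlated at 0.41 across genes. With the replicate number as a block, which leaves the fit 1 residual degree of freedom, 671 genes and 5 factors were called, Pparg (adjusted p = 0.00658), Cebpa (0.0272) and Srebf1 (0.00193) joining Ebf2 and Mlxipl. The block also called 3 partners of Pparg, 2 of SREBP and ChREBP, 3 sebaceous, 2 suprabasal, 2 precursor, 4 hepatocyte, 1 myeloid and 1 mast or B cell marker. With 1 array left out up to 2 suprabasal, 1 precursor and 1 mast or B cell marker were called, and with the lower 50% left out 1 suprabasal marker. Without a variance trend 1 basal and 0 hepatocyte markers were called. Without detection calls, signal over background was not known, and a bound could be given for no gene.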
